A study of Mus musculus with 6 samples.

Results

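NRF2, encoded by Nfe2l2, is the transcription factor that switches on genes against oxidants and reactive chemicals, and 10 genes of this pathway are described here, out of the 55487 genes in the count table. They were taken by name: Nfe2l2 itself, Keap1, which encodes its inhibitor, and the targets Hmox1, Nqo1, Gclc, Gclm, Slc7a11, Txnrd1, Srxn1 and G6pdx. Each symbol matched 1 Ensembl gene, and all 10 passed the filter on low counts. RNA was sequenced from 3 libraries of Lyplal1 knockout cells and 3 libraries of wild-type cells of 4T-1, a mouse mammary carcinoma line, all without treatment. The names of the knockout libraries carry "sg2" and those of the wild-type libraries "NC", which the labels do not explain. The labels also do not say whether the knockout cells were 1 clone or a pool, or whether libraries of a group came from separate cultures, so the p-values measure the spread between these libraries, which may be technical.

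In unstressed cells KEAP1 holds NRF2 for ubiquitination through cullin 3, and the factor is degraded as fast as it is made. Oxidants and electrophiles modify cysteines of KEAP1, and NRF2 then builds up, pairs with a small MAF protein and binds antioxidant response elements near its targets. NRF2 is thus controlled largely as a protein, which RNA counts do not measure. In tumour cells the pathway is known for supplying glutathione, thioredoxin and NADPH, the reducing power that lets cells survive oxidative stress and drugs.

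Lyplal1 itself, the targeted gene, had 54, 48 and 58 counts in knockout replicates 1 to 3 and 76, 73 and 68 counts in wild-type replicates 1 to 3. This difference missed the threshold (log2 fold change -0.28 ± 0.15 (SE), edgeR quasi-likelihood adjusted p = 0.0886), so the amount of its RNA cannot serve as a check of the labels, and which exon was cut is not stated. Total counts were 16731209 to 16784906 in knockout and 17007616 to 17108975 in wild type. The epithelial markers Epcam, Cdh1, Krt8, Krt18 and Krt19 were present, and the 7 listed epithelial markers summed to 1715 to 1733 CPM (counts over the TMM-adjusted library size) in knockout and 3114 to 3201 CPM in wild type. The other listed ones were low. Cldn7 had 27, 29 and 51 counts in knockout and 55, 74 and 53 in wild type. Krt14 had 24, 27 and 31 counts in knockout and 30, 32 and 24 in wild type, and was not called (log2 fold change 0.092). Knockout replicate 3 stood apart: chi-square values per gene were 3.48 and 3.74 against the other knockout libraries and 1.45 to 1.97 for the other same-group pairs. Markers of lung epithelium, among them Sftpc and Scgb1a1, summed over 6 genes to 41.2, 47.6 and 167 CPM in knockout replicates 1 to 3 and to 0.448 to 0.558 CPM in wild type, where Sftpa1 and Cxcl15 were at 0. Endothelial markers summed over 5 genes to 1.19, 1.69 and 6.98 CPM in knockout replicates 1 to 3 and to 0.169 to 0.224 CPM in wild type. Leukocyte markers summed over 7 genes to 0.313, 0.624 and 2.96 CPM in knockout and to 0.279 to 0.560 CPM in wild type. Itgam, Adgre1 and Tyrobp were at 0 in wild type and had 3, 8 and 16 counts in knockout replicate 3. Ptprc went the other way, with 2, 1 and 4 counts in knockout and 3, 4 and 7 counts in wild type. Cd3e and Cd79a had at most 2 counts in any library. Fibroblast markers summed over 6 genes to 167 to 180 CPM in knockout and 67.3 to 70.0 CPM in wild type, nearly all from Pdgfra. Lum and Pdgfrb were at 0 in wild type, and in knockout Lum had 0, 1 and 1 counts and Pdgfrb 1, 0 and 10. Dcn had 4, 1 and 16 counts in knockout and 1, 2 and 5 in wild type. Col1a2 had 6, 1 and 33 counts in knockout and 2, 1 and 3 in wild type. Col1a1 was lower in knockout, with 15, 14 and 37 counts in knockout and 65, 60 and 71 counts in wild type. The part of these cell types in the values below was not tested. Each of the 10 genes kept its direction and its call when knockout replicate 3 was left out, which leaves the lung markers of the other knockout libraries in place. In bulk RNA, fewer cells of a type and less RNA per cell cannot be told apart.

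The sequences below are promoter windows from RefSeq (GRCm38.p6), from 250 bases before to 50 bases after a start site, and show where the element that NRF2 binds could lie. There were 10 windows for 8 of the 10 genes, and none for Hmox1 or Gclc. The letters searched were the element's core, TGACNNNGC, and a looser form that contains it, TGANNNNGC, on both strands, where N is any base. The core was found in 5 of the 10 windows, one each for Nfe2l2, Gclm, Txnrd1, Srxn1 and G6pdx, against 12.4% of 32851 windows of the same length. The looser form was in 41.3% of all windows. Keap1 and Slc7a11 had only looser matches, and Nqo1 had neither form in its window. A match is a description and not a binding site, and the absence of one says only that these letters are not in this window. Capitals mark every match to the looser form, printed 5′ to 3′ along the gene's own strand (Gclm chr3:122245307-122245606 on the plus strand, Srxn1 chr2:152105274-152105573 on the plus strand, G6pdx chrX:74428831-74429130 on the minus strand). These 3 are shown whole because they hold a core match and passed a test for being more than 1.5-fold higher in knockout. Nqo1, Hmox1 and Gclc also passed that test, but Nqo1 had no match, and Hmox1 and Gclc could not be searched.
Gclm: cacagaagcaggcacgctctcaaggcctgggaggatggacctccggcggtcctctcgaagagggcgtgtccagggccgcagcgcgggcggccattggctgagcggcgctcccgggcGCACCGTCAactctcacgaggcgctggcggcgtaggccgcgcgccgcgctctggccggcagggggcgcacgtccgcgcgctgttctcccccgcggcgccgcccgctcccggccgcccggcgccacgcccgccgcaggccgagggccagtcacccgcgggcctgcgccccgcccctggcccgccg
Srxn1: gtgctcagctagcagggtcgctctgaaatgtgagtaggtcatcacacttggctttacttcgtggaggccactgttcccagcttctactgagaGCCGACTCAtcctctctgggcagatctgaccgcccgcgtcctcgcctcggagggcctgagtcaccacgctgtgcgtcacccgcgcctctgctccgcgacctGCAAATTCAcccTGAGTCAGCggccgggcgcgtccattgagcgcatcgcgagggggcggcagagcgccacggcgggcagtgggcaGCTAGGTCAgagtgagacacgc
G6pdx: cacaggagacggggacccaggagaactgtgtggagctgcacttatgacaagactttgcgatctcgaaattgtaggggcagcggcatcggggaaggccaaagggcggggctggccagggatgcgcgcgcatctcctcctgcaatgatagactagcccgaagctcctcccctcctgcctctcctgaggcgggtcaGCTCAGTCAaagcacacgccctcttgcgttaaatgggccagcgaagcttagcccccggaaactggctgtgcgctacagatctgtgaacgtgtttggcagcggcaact

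In Gclm the core match begins 134 bases before the start site and in G6pdx 57 bases before it. Srxn1 holds 4 matches, of which only the one that begins 29 bases after the start site is to the core. Shorter stretches are shown for Nfe2l2 (chr2:75704814-75704913, minus strand) and for 1 of the 3 Txnrd1 start sites (chr10:82859069-82859168, plus strand), each with its core match, and for Slc7a11 (chr3:50443564-50443723, minus strand), whose 3 matches are all to the looser form and whose RNA differed in direction from that of the other targets.
Nfe2l2: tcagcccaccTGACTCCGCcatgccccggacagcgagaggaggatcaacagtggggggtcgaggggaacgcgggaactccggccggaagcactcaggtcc
Txnrd1: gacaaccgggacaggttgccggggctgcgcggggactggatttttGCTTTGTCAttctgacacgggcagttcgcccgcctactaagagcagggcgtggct
Slc7a11: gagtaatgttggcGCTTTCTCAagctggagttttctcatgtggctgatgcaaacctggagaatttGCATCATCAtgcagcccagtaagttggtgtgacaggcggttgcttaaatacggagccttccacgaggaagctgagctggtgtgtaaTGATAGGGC

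Knockout cells carried more RNA of 7 of the 8 targets and of Keap1, and less of Nfe2l2 and Slc7a11. In all, 8 of the 10 genes were called higher in knockout, against 41.3% of the 13022 tested genes, and 2 were called lower, against 40.9% (quasi-likelihood F test of edgeR, false discovery rate under 0.05). On log2(TPM + 1), where TPM is a level scaled for gene length and library, limma-trend called 4125 genes higher and 6598 lower, against 5382 and 5329 with TMM, and the 10 genes were again 8 higher and 2 lower. So many genes differed between these groups that a call by itself says little, and a stricter test against a 1.5-fold change, added after the data had been seen, called 19.2% of genes higher and 20.7% lower. By that test Nqo1, Hmox1, G6pdx, Gclm, Srxn1 and Gclc were higher, while Txnrd1, Keap1, Nfe2l2 and Slc7a11 were not called. The median log2 fold change of the 10 genes was 0.93, beside -0.0012 over all tested genes. The libraries of the 2 groups did not overlap in CPM for any of the 10 genes, as was the case for 83.1% of all tested genes.

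**Figure D1:**
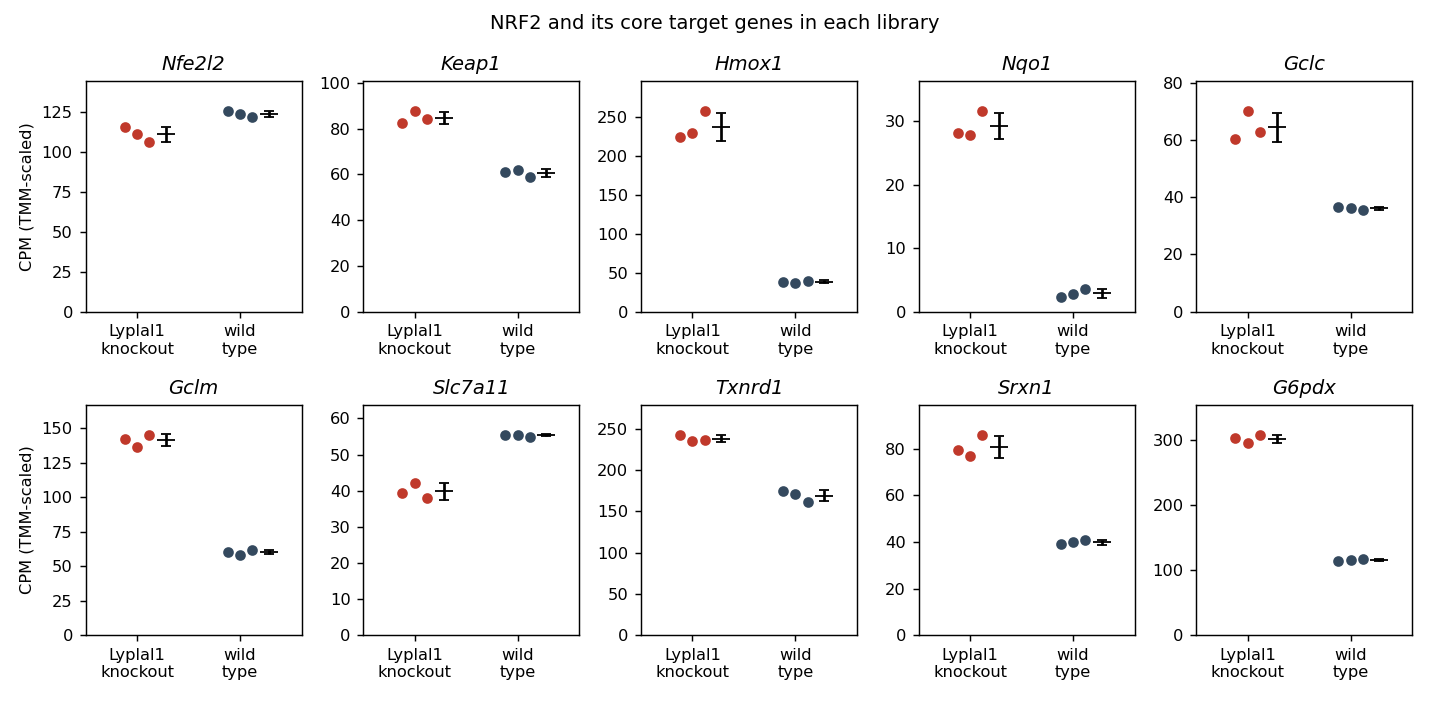
CPM (TMM-scaled, linear axes from 0) of the 10 genes in the 3 Lyplal1 knockout and 3 wild-type libraries, with the mean and SD beside the points. Knockout points lie above wild-type points in 8 panels and below them for Nfe2l2 and Slc7a11.

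Of the control pair, the factor was slightly lower and its inhibitor higher. Nfe2l2 (ENSMUSG00000015839, chromosome 2, 75675513 to 75704641, GRCm38) had 116, 111 and 106 CPM in knockout replicates 1 to 3, against 126, 124 and 122 CPM in wild-type replicates 1 to 3. The lowest wild-type library was above the highest knockout library. The log2 fold change was -0.16 ± 0.04 (SE), or 1.11-fold higher in wild type (edgeR adjusted p = 8.72e-04), and 57.8% of tested genes had a larger log2 fold change. Keap1 (ENSMUSG00000003308, chromosome 9, 21229730 to 21239361) had 82.3, 87.7 and 84.4 CPM in knockout, against 60.9, 62.2 and 58.8 CPM in wild type. Every knockout library was above every wild-type library, and the gene was 1.40-fold higher (log2 fold change 0.48 ± 0.045, edgeR adjusted p = 1.54e-10). Neither gene passed the test against a 1.5-fold change. The ratio of Nfe2l2 to Keap1 TPM, which does not depend on how libraries are scaled to each other, was 1.62 ± 0.0999 in knockout and 2.53 ± 0.0567 in wild type (SD, n = 3 each). This is a log2 difference of -0.64, with an exact two-sided permutation p = 0.1, the smallest that 3 libraries against 3 can give.

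Part of the Keap1 locus is also annotated on the other strand. Gm16754, an antisense gene (ENSMUSG00000097439, chromosome 9, 21225371 to 21233046), shares 510 bases of exon with Keap1, 10.9% of the Keap1 exons. It had 31, 27 and 20 counts in knockout, against 218, 187 and 204 counts in wild type, so the wild-type level was 6.96-fold that of knockout (log2 fold change -2.80 ± 0.15, edgeR adjusted p = 8.81e-16). It thus moved opposite to Keap1 and is named after its values were seen. The strand setting of the counting is not given in the sources used here, so reads of the shared stretch cannot be assigned to one strand with certainty.

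**Figure D2:**
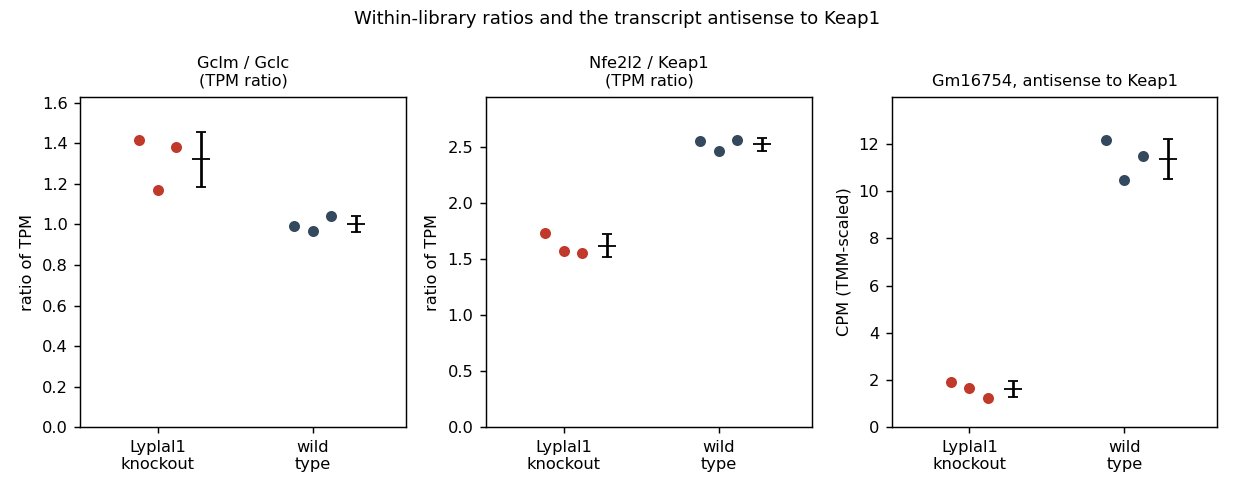
Values in the 3 Lyplal1 knockout and 3 wild-type libraries, with mean and SD beside the points and axes from 0: the ratio of Gclm to Gclc TPM, the ratio of Nfe2l2 to Keap1 TPM, and CPM of Gm16754, which is antisense to Keap1. The first ratio is 1.17 to 1.42 in knockout and 0.966 to 1.04 in wild type, the second is lower in knockout, and Gm16754 is lower in knockout.

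The heme and quinone enzymes showed the largest differences of the 10. Hmox1 encodes heme oxygenase 1, which breaks heme down to biliverdin, iron and carbon monoxide (ENSMUSG00000005413, chromosome 8, 75093621 to 75100589). Its level was 224, 229 and 258 CPM in knockout, against 38.4, 36.3 and 40.0 CPM in wild type. All knockout libraries were far above the wild-type ones, and knockout replicate 3 was the highest. It rose 6.19-fold (log2 fold change 2.63 ± 0.053, edgeR adjusted p = 3.82e-21), and 2.57 on the log2 scale without knockout replicate 3. Nqo1 encodes a quinone reductase that keeps quinones from cycling to radicals (ENSMUSG00000003849, chromosome 8, 107388225 to 107403206). It had 451, 447 and 502 counts in knockout, against 41, 49 and 64 counts in wild type. The wild-type libraries were low but never near 0. Its mean was 29.2 ± 2.05 CPM in knockout and 2.88 ± 0.665 CPM in wild type (SD, n = 3 each), a 10.1-fold rise (log2 fold change 3.34 ± 0.11, edgeR adjusted p = 6.95e-20). Of all tested genes, 1.97% had a larger log2 fold change than Nqo1 and 2.63% a larger one than Hmox1.

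The 3 glutathione genes did not move together. Slc7a11 encodes xCT, the transporter that exchanges glutamate for the cystine from which cells make glutathione (ENSMUSG00000027737, chromosome 3, 49892526 to 50443614). It had 39.2, 42.3 and 37.9 CPM in knockout, against 55.5, 55.4 and 55.0 CPM in wild type. The knockout libraries were all lower, by 1.39-fold (log2 fold change -0.47 ± 0.052, edgeR adjusted p = 4.50e-09). It is the one target of the 8 that was called lower, and it did not pass the test against a 1.5-fold change. Gclc encodes the catalytic subunit of glutamate-cysteine ligase, the first step of glutathione synthesis (ENSMUSG00000032350, chromosome 9, 77754535 to 77794485). It had 60.2, 70.1 and 62.9 CPM in knockout, against 36.5, 36.3 and 35.5 CPM in wild type. Knockout replicate 2 was the highest, and the knockout libraries were more spread than the wild-type ones. Gclc rose 1.78-fold (log2 fold change 0.83 ± 0.056, edgeR adjusted p = 2.17e-13). Gclm encodes the modifier subunit that makes this enzyme more active (ENSMUSG00000028124, chromosome 3, 122245557 to 122270732). It had 143, 137 and 145 CPM in knockout, against 60.5, 58.6 and 61.8 CPM in wild type, with a clear gap between the groups. Gclm rose 2.35-fold (log2 fold change 1.23 ± 0.042, edgeR adjusted p = 7.86e-20).

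Per length, the 2 ligase subunits stood level in wild type and apart in knockout. The ratio of Gclm to Gclc TPM was 1.32 ± 0.135 in knockout and 1.0 ± 0.0395 in wild type (SD, n = 3 each). Knockout replicate 2, at 1.17, was nearest to the wild-type range of 0.966 to 1.04 and did not reach it. The log2 difference was 0.40, with an exact two-sided permutation p = 0.1, the smallest possible. Gclm shares 4.71% of its exon bases with the opposite-strand gene Gm17494, which had 15 to 23 counts in knockout and 5 to 8 in wild type. The same-strand pseudogene Gm6061, with 0 counts in every library, shares 3.88% of the Gclm exon bases. Of the 50-base words of Gclm transcripts, 3.25% also occur in Ppia.

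Of the other 21 tested genes of the glutathione cycle, 11 were higher in knockout (52.4%, beside 41.3% of all tested genes). Another 7 were lower (33.3%, beside 40.9%), and the median log2 fold change was 0.15. On log2(TPM + 1) these were 10 higher and 10 lower with a median of -0.058, beside -0.19 over all tested genes in that fit. The direction of the list median thus depends on the scaling, while it lay above that of all tested genes in both fits. The glutathione peroxidase gene Gpx4, whose enzyme reduces lipid peroxides, rose 2.46-fold, the glyoxalase gene Hagh 2.64-fold and Cth, which makes cysteine from cystathionine, 3.49-fold. Gpx8, a peroxidase of the endoplasmic reticulum, was 3.77-fold higher in wild type, and the neutral amino acid transporter gene Slc1a4 1.75-fold. Some neighbours were named after their values were seen. Slc3a2, whose protein is the heavy chain that carries xCT to the membrane, rose 2.23-fold while its partner Slc7a11 fell. Gss, glutathione synthetase, rose 2.72-fold, while Gsr, which regenerates glutathione from its oxidized form, was 1.54-fold higher in wild type. Gss shares exon bases with the opposite-strand gene Acss2.

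Both thioredoxin genes were higher in knockout. Txnrd1 encodes the cytosolic selenoenzyme that reduces thioredoxin with NADPH (ENSMUSG00000020250, chromosome 10, 82833951 to 82897712). It had 243, 235 and 236 CPM in knockout, against 174, 171 and 162 CPM in wild type. The groups were apart, by 1.41-fold (log2 fold change 0.49 ± 0.036, edgeR adjusted p = 1.20e-12), but not by the test against a 1.5-fold change. Srxn1 encodes sulfiredoxin, which repairs peroxiredoxins that peroxide has overoxidized (ENSMUSG00000032802, chromosome 2, 152105516 to 152111376). It had 79.3, 76.8 and 85.9 CPM in knockout, against 38.9, 39.8 and 40.8 CPM in wild type. All knockout libraries were higher, with a 2.02-fold rise (log2 fold change 1.02 ± 0.051, edgeR adjusted p = 3.24e-16). Of the other 18 tested thioredoxin and peroxiredoxin genes 13 were higher (72.2%, beside 41.3% of all tested genes). Another 5 were lower (27.8%, beside 40.9%), and the median log2 fold change was 0.40. By the test against a 1.5-fold change only 4 of the 18 were higher and 1 lower, beside 19.2% and 20.7% of all tested genes. On log2(TPM + 1) 10 were higher and 5 lower, beside 4125 and 6598 of all 13022 tested genes. The mitochondrial thioredoxin gene Txn2 rose 3.13-fold, the selenoprotein gene Selenow 4.5-fold and Txndc17, a thioredoxin-like protein gene, 1.59-fold. Txnip, whose protein binds and inhibits thioredoxin, was 2.56-fold higher in wild type, and the peroxiredoxin gene Prdx2 1.33-fold. Txnip and Prdx2 share exon bases with opposite-strand genes. Txn1 and Prdx1, the cytosolic partners of Txnrd1 and Srxn1, were named after their values were seen and rose 1.40-fold and 1.35-fold.

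G6pdx, the X-linked glucose-6-phosphate dehydrogenase that opens the pentose phosphate pathway and makes NADPH (ENSMUSG00000031400, chromosome X, 74409483 to 74429194), was the most abundant of the 10 by CPM in knockout. It had 303, 296 and 308 CPM in knockout, against 114, 116 and 118 CPM in wild type. The libraries of each group lay close together, and the gene rose 2.62-fold (log2 fold change 1.39 ± 0.035, edgeR adjusted p = 9.45e-23). The opposite-strand gene Ikbkg shares 418 bases of exon with it, 13.6% of the G6pdx exons. Ikbkg rose 2.0-fold, with 85.6, 89.1 and 88.6 CPM in knockout, against 42.6, 43.3 and 45.4 CPM in wild type. The related gene G6pd2 shares 6.46% of the 50-base words of G6pdx transcripts. It had 2, 4 and 8 counts in knockout, against 0, 0 and 4 counts in wild type, and was too low to test. Of the other 20 tested genes of NADPH supply, 12 were higher (60%, beside 41.3% of all tested genes). Another 5 were lower (25%, beside 40.9%), and the median log2 fold change was 0.44. Rpe, an enzyme of the same pathway, rose 3.30-fold, the malic enzyme gene Me1 2.75-fold, the NAD kinase gene Nadk 2.34-fold and Shmt2, of mitochondrial folate metabolism, 2.05-fold. Idh1, the cytosolic isocitrate dehydrogenase gene, was 2.28-fold higher in wild type and Mthfd1l 1.65-fold. Rpe shares 17.9% of its exon bases with Kansl1l. Pgd, Taldo1 and Tkt, later steps of the pentose phosphate pathway, were named after their values were seen and rose 1.43-fold, 1.71-fold and 1.14-fold. The log2 fold change of Tkt ran from -0.017 to 0.21 over the alternatives, so its direction depends on the scaling.

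Compared per length, the order of the 10 genes differed between the groups. In knockout the deposited TPM averaged 499 for Hmox1, 362 for G6pdx, 124 for Txnrd1, 108 for Nfe2l2, 105 for Srxn1, 83.0 for Gclm, 69.4 for Nqo1, 66.7 for Keap1, 63.1 for Gclc and 10.6 for Slc7a11. In wild type it averaged 160 for G6pdx, 139 for Nfe2l2, 102 for Txnrd1, 93.0 for Hmox1, 60.2 for Srxn1, 55.0 for Keap1, 40.8 for Gclc, 40.8 for Gclm, 16.9 for Slc7a11 and 7.89 for Nqo1. Neighbours whose libraries overlapped were Nfe2l2 with Srxn1, Nqo1 with Keap1 and Keap1 with Gclc in knockout, and Txnrd1 with Hmox1 and Gclc with Gclm in wild type. Hmox1 thus stood at the top in knockout and in the fourth place in wild type, and Nqo1 stood at the bottom in wild type.

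**Figure D3:**
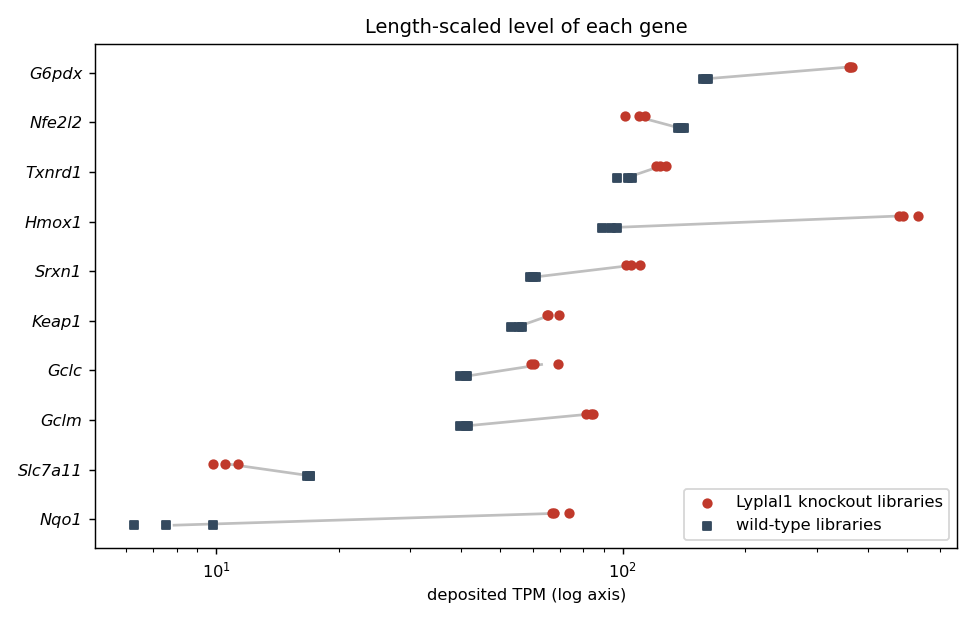
Deposited TPM (log axis) of the 10 genes, ordered by their wild-type mean, with circles for the 3 Lyplal1 knockout libraries above squares for the 3 wild-type libraries of each gene. The longest lines belong to Nqo1 and Hmox1, and the line runs the other way for Nfe2l2 and Slc7a11.

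The size of the smaller differences depended on the scaling. With upper-quartile factors the median log2 fold change of all tested genes was -0.13, and on log2(TPM + 1) it was -0.19, and each of the 10 log2 fold changes was lower than with TMM in both fits. On log2(TPM + 1) the log2 fold change was -0.36 for Nfe2l2, 0.27 for Keap1, 0.28 for Txnrd1 and -0.64 for Slc7a11, and each was still called (limma-trend adjusted p = 2.77e-04 for Keap1, the largest of the 10). None of the 10 changed direction under any of the 15 alternatives that keep the test against no change.

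**Figure D4:**
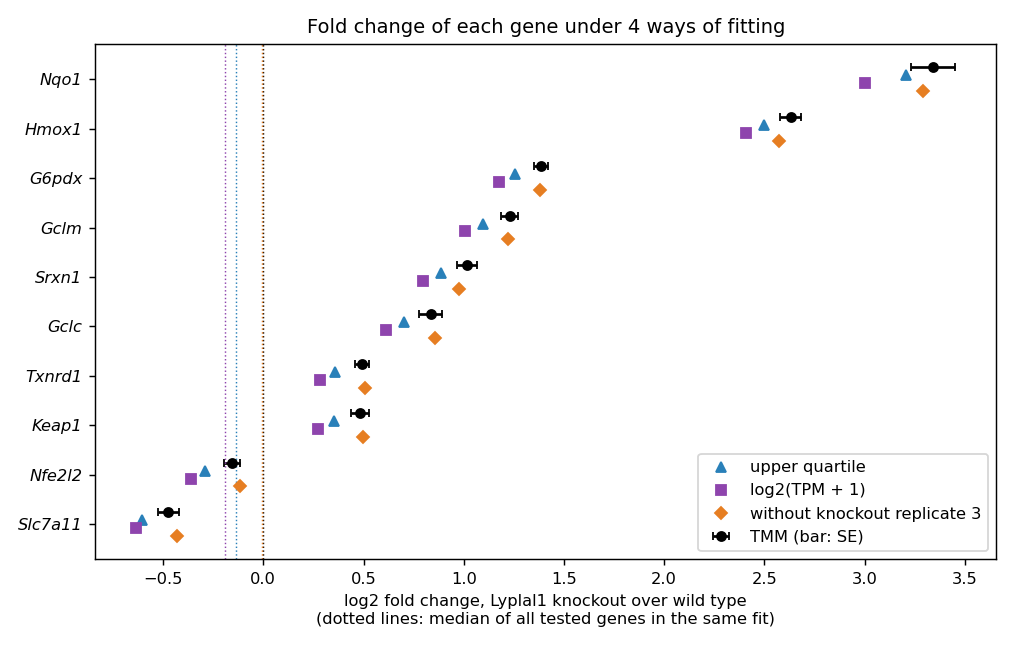
Log2 fold change, Lyplal1 knockout over wild type, of the 10 genes with TMM factors (black, with SE), upper-quartile factors, limma-trend on log2(TPM + 1), and TMM without knockout replicate 3. Dotted lines mark the median of all tested genes in the same fit, and 8 genes lie to the right of 0 in all 4 while Nfe2l2 and Slc7a11 lie to the left.

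Of 36 tested genes on a list of other NRF2 targets, 26 were higher in knockout (72.2%, beside 41.3% of all tested genes), 7 were lower (19.4%, beside 40.9%) and 3 were not called. Their median log2 fold change was 0.63. By the test against a 1.5-fold change 18 were higher and 4 lower, beside 19.2% and 20.7% of all tested genes. Sqstm1, which encodes the autophagy receptor p62 that also binds KEAP1, rose 8.88-fold to 5493 ± 220 CPM in knockout, against 618 ± 17.2 CPM in wild type (SD, n = 3 each). Fth1, the ferritin heavy chain gene that stores the iron heme oxygenase frees, rose 8.33-fold, but reads of its many pseudogenes may be mixed in. The esterase gene Esd rose 5.02-fold and the heme transporter gene Slc48a1 5.39-fold. Not all moved up. Ugdh, which makes UDP-glucuronic acid, was 1.79-fold higher in wild type. The cytochrome gene Cyp2s1 had 4, 4 and 14 counts in knockout, against 206, 205 and 215 counts in wild type, a log2 fold change of -4.65, and of -5.50 without knockout replicate 3. Sqstm1 shares 17.3% of its exon bases with the opposite-strand gene Mrnip. Many genes of this list also stand on other lists here, among them Gss, Gsr, Txn1, Prdx1, Prdx6, Me1, Pgd, Taldo1, Tkt, Blvrb and Slc48a1. The counts of the lists are therefore not independent of each other.

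Among 24 tested regulators of NRF2, 14 were higher in knockout (58.3%, beside 41.3% of all tested genes). Another 9 were lower (37.5%, beside 40.9%), and the median log2 fold change was 0.16. On log2(TPM + 1) these were 9 higher and 10 lower with a median of -0.051, beside -0.19 over all tested genes in that fit. The direction of this list median depends on the scaling too, while it lay above that of all tested genes in both fits. Sqstm1 and Nfe2l1, which belong to this list as well, are described above and below. Mafk, a small MAF partner of NRF2, rose 2.66-fold, and Gsk3b, a kinase that marks NRF2 for another route of degradation, rose 1.80-fold. Bach2, a repressor related to Bach1, had 16, 10 and 5 counts in knockout, against 176, 177 and 178 counts in wild type, 15.2-fold higher in wild type. Bach1, which competes with NRF2 at Hmox1, was named after its value was seen and rose 1.27-fold. Of the factor's own relatives, Nfe2l1 rose 3.30-fold, at 1864 ± 35.6 CPM in knockout and 565 ± 8.83 CPM in wild type (SD, n = 3 each), while Nfe2l3 was 4.86-fold higher in wild type at a low level. Nfe2 was too low to test.

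Of 10 tested paralogs of the 10 genes, Nfe2l1 and Nfe2l3 included, 4 were higher in knockout (40%, beside 41.3% of all tested genes). Another 5 were lower (50%, beside 40.9%), and the median log2 fold change was -0.13. Hmox2, the constitutive heme oxygenase gene, rose 1.35-fold, beside 6.19-fold for Hmox1, and shares 40.2% of its exon bases with Cdip1. Nqo2 rose 1.57-fold, beside 10.1-fold for Nqo1, and shares 18.9% of its exon bases with Serpinb6a. The mitochondrial reductase gene Txnrd2 rose 2.58-fold, more than Txnrd1, while Txnrd3 was 1.59-fold higher in wild type. H6pd, the dehydrogenase of the endoplasmic reticulum, was 1.34-fold higher in wild type. Of the relatives of Slc7a11, Slc7a5 was 1.25-fold and Slc7a7 2.20-fold higher in wild type, Slc7a6 was not called, and Slc7a8 and Slc7a10 were too low to test. These differences between paralogs were not tested against each other.

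Genes of heme synthesis and breakdown beside Hmox1 were mostly higher. Of 15 tested, 11 were higher (73.3%, beside 41.3% of all tested genes) and the other 4 were not called by edgeR. None was called lower, beside 40.9% of all tested genes, and the median log2 fold change was 0.60. On log2(TPM + 1) these were 9 higher and 2 lower, where 4125 of all 13022 tested genes were higher and 6598 lower. Blvrb, a biliverdin reductase, rose 3.91-fold, Slc48a1 5.39-fold, Alas1, the first enzyme of heme synthesis, 2.39-fold and Alad, the next enzyme, 2.24-fold. Of 6 tested genes of superoxide handling, 5 were higher (83.3%, beside 41.3% of all tested genes) and 1 was not called. By limma-trend on log2(TPM + 1), 3 were higher and 2 lower, beside the same 4125 and 6598 of all 13022 tested genes. Sod1 and Sod2, the cytosolic and mitochondrial superoxide dismutase genes, rose 2.74-fold and 2.52-fold, and Cyba, a subunit of NADPH oxidases, rose 2.31-fold.

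**Figure D5:**
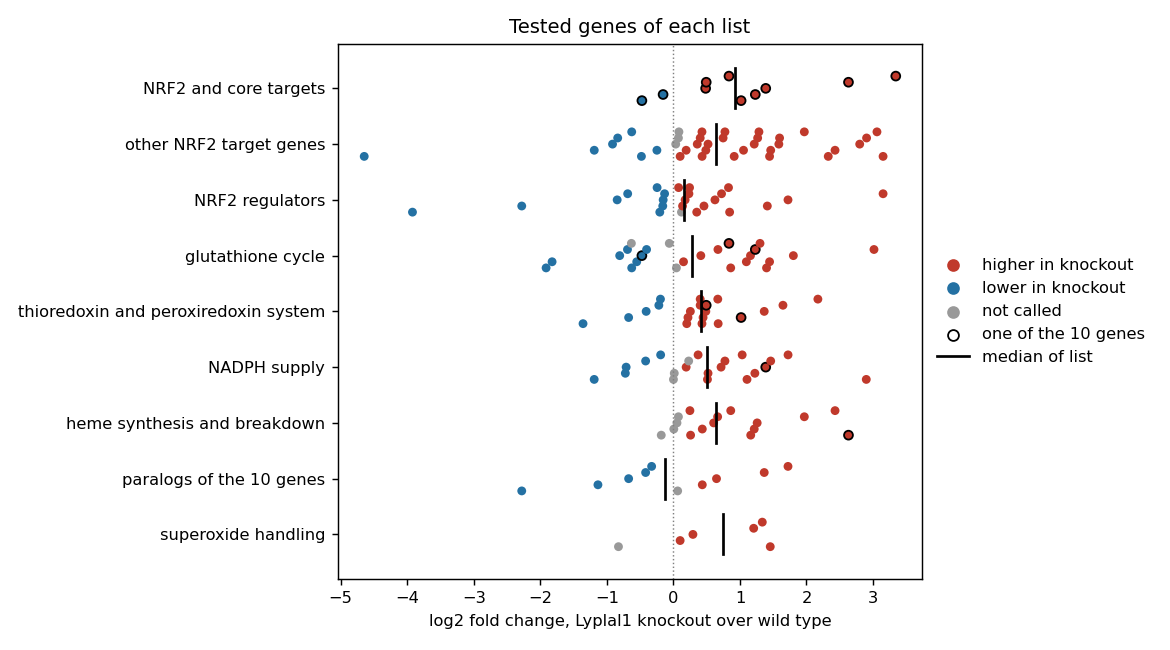
Log2 fold change, Lyplal1 knockout over wild type, of the tested genes of 9 lists, red where called higher, blue where called lower and grey where not called, with a black bar at each list's median and black rims around the 10 genes described here. Medians run from -0.13 for the paralogs to 0.93 for the 10 genes, and every list except heme and superoxide genes has genes called on both sides of 0.

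The genes whose profile over the 6 libraries was nearest to that of Nfe2l2 were Fbxl5, Mtor and Kidins220. Their root-mean-square distances, on centred log2 CPM, were 0.0137, 0.0146 and 0.0162, among 10101 genes averaging 5 CPM or more. As many as 1487 of these lay within 0.1, so the profile is a common one.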

How the data were processed

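RNA of 4T-1 cells was sequenced in 3 Lyplal1 knockout and 3 wild-type libraries (Trizol RNA, DNBseq libraries, per the labels' protocols). The authors deposited whole-number counts and TPM for 55487 genes. STAR 2.7.8a, featureCounts 2.0.1 and GRCm38 are named in the submitters' processing notes, with no settings. The deposited TPM used the merged exon lengths of GENCODE M21, as found for the 10 genes, and that release gave symbols and positions to 55227 genes. The 12 single-library files held the same values as the whole tables and were used only for that comparison.

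Counts were fitted with edgeR 4.0.16 (filterByExpr, TMM, robust quasi-likelihood F test, two-sided, Benjamini-Hochberg over 13022 genes) and tested on simulated data. Standard errors come from the fold change and its F statistic. Alternatives used limma 3.58.1 and DESeq2 1.42.0. The 10 genes and all lists were chosen with earlier results of these data known. From each list, up to 4 called genes with the smallest adjusted p were named, with up to 2 of the opposite direction, and all paralogs. Whether replicate numbers pair the libraries could not be decided, and the main fit left them out.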

Additional observations from a re-analysis of the deposited data

How the results depend on the processing

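Every one of the 10 genes kept its direction and its call with RLE, upper-quartile or no factors, DESeq2, no filter, a filter of 1 CPM in 3 libraries, TPM with a pseudocount of 1 or 0.1, the replicate block, and without each library in turn. Over these 15 alternatives the log2 fold change ran from 3.0 to 3.53 for Nqo1, from 2.41 to 2.68 for Hmox1, from 0.27 to 0.51 for Keap1, from -0.36 to -0.12 for Nfe2l2 and from -0.68 to -0.43 for Slc7a11. Tested against a 1.5-fold change, a setting chosen after seeing the data, calls over all genes were 2503 higher and 2690 lower, 0 of the 10 genes and 4 of the other NRF2 targets were lower, and Nfe2l2, Keap1, Slc7a11 and Txnrd1 were no longer called. The number of other targets called higher ran from 23 to 26 over the rest. With the replicate number as a replicate block, 5430 genes were higher and 5368 lower, and the 10 genes were 8 higher and 2 lower. Deviations of same-numbered libraries correlated at 0.002, 0.124 and 0.116. Knockout replicates 2 and 3 correlated best with the wild-type library of their own number, and knockout replicate 1 with wild-type replicate 2 (0.032). Correlations this small, among so few libraries, cannot decide whether the numbers pair them. With 3 libraries a group the ratio tests cannot fall below 0.1, and Nqo1 in wild type rests on 41 to 64 counts.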
